A study of Mus musculus with 3 samples.

Results

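Stom, Vwde, App, Tspan5 and B4galnt4 are 5 genes, none of them a cytokine gene, that stood far below wild type in antigen-specific CD4+ T cells of mice labelled as lacking, in T cells, Il6ra, the gene of the alpha chain of the IL-6 receptor. They were picked by name for that difference from the 23283 genes or gene groups in each of 2 tables, so their levels in the IL6ra T-KO-labelled library against WT are given as a description and without a test. All 5 were among the genes the authors tested in both tables, and all 5 reached 5 FPKM (fragments mapped per kilobase of transcript, relative to the size of the library) in at least 1 library of each. The mice were C57BL/6, immunized in the footpad with the peptide 2W1S and LPS in IFA, and the cells that bound 2W:I-A(b), the class II molecule carrying this peptide, were sorted from draining lymph nodes on day 7. The groups were IL6ra T-KO (genotype Il-6 receptor a chain -/-), MyD88 T-KO (genotype Myd88 -/-) and WT (wild-type), with 1 library each, pooled from 4 experiments and 15 to 30 mice per genotype. The series title describes both deletions as restricted to T cells, and the Cre line behind them is not named in the sources used here. With 1 pooled library per genotype there was no replicate check, no test and no p-value of the genotype. Depth, estimated from the FPKM of low genes that fell on steps of 1 fragment, was about 21.8 to 24.9 M fragments per library.

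IL-6 binds its receptor alpha chain and then the shared chain gp130, which activates JAK kinases and the transcription factor STAT3. In CD4+ T cells this pathway is known for inducing the feedback inhibitor Socs3, for driving Th17 differentiation and for supporting follicular helper cells. MyD88 carries signals from IL-1 family receptors and most Toll-like receptors, and IL-1 acts together with IL-6 on Th17 cells. The 5 genes encode proteins of membranes or of the secretory pathway. Stomatin (Stom) is a membrane protein of lipid rafts first known from red cells, APP is the precursor of the amyloid beta peptide, TSPAN5 is a tetraspanin that carries the protease ADAM10 to the cell surface, B4GALNT4 is a Golgi enzyme that adds N-acetylgalactosamine to make the LacdiNAc glycan, and VWDE is named for its von Willebrand factor D and EGF domains and is known from limb regeneration in the axolotl.

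The promoters of the genes differed in base composition, and none held the STAT motif that was searched. In the RefSeq promoter table (build GRCm38.p6, 250 bases before to 50 after each gene start) all 5 genes matched. For Tspan5 and B4galnt4 the RefSeq start lies at another base than the start in the deposited tables. The deposited start of Tspan5 lies inside the searched window. That of B4galnt4, at 141061274, lies beyond the end of its window at 141061027. The motif TTCNNNGAA, spelled the same on both strands, was found in 0 of the 5 promoters, beside 8.30% of the 32851 promoters in the table, and its form with a spacer 1 base longer was also found in 0 of 5, beside 6.95%. Counts of 0 of 5 are near these shares and are not a result about the 5 genes. No match says only that these letters are not in this window. Counted by gene, 9.55% of 27025 genes held TTCNNNGAA in at least 1 promoter. Some genes outside the 5 had a pattern over the 3 libraries close to theirs, described below. Of these, the promoters of Socs3, Il1r1, Maff, Ramp1 and Socs1 were searched. Those of F2rl1, Tgfb3 and Cd163l1 were not analysed here. TTCNNNGAA was found once in the Socs3 promoter, starting 154 bases before the gene start, and once in 1 of the 3 Maff promoters. The observed over expected ratio of CpG was 1.11 for Tspan5, 1.10 for B4galnt4, 0.796 for App, 0.552 for Stom and 0.162 for Vwde, beside a median of 0.384 over all promoters. Vwde held 3 CpG dinucleotides and B4galnt4 held 37. The promoters of Vwde, B4galnt4 and Stom are shown with each CpG in capitals, as the lowest and a high example and the gene with the lowest log2 ratio to WT, and that of Socs3 is shown with the STAT motif in capitals.
Vwde promoter, chr6:13224916-13225215, minus strand, GRCm38.p6: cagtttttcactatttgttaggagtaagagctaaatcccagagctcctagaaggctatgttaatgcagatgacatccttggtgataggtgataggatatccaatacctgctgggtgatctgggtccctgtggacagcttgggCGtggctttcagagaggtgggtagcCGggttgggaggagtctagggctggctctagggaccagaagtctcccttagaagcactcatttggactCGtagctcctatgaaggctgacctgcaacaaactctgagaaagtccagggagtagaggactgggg
B4galnt4 promoter, chr7:141060728-141061027, plus strand, GRCm38.p6: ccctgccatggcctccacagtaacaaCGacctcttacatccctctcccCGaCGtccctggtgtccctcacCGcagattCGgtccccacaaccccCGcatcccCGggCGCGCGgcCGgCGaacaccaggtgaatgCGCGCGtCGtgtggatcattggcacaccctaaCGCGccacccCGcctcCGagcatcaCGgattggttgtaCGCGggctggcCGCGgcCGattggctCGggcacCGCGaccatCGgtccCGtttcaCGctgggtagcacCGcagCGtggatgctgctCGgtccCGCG
Stom promoter, chr2:35336960-35337259, minus strand, GRCm38.p6: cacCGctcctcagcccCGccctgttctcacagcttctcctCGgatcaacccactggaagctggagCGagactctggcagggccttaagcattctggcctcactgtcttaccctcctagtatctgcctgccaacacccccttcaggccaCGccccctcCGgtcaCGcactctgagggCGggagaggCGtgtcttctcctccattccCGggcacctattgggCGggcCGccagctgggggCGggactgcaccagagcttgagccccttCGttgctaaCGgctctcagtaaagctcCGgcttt
Socs3 promoter, chr11:117969317-117969616, minus strand, GRCm38.p6: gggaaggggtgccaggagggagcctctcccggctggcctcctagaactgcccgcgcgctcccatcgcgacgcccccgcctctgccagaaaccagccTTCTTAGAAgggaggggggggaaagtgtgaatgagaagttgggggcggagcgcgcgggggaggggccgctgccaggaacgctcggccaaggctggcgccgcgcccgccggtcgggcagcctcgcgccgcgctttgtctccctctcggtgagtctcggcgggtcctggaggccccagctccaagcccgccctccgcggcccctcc

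Stom, which had the lowest log2 ratio of the 5 on the scale defined below, was measured at 6.58 FPKM in the IL6ra T-KO-labelled library, against 38.9 FPKM in WT. Its MyD88 T-KO level was 26.9 FPKM, against 37.9 FPKM in WT in that table. Each table carries the same WT library, scaled separately by a near-constant factor (median 1.02 over 10201 genes), so each knockout was set against the WT value of its own table. Stom (chromosome 2, 35313990 to 35337009, mm10) thus kept 16.9% of the WT level in the IL6ra T-KO-labelled library and 71.0% in the MyD88 T-KO library. Each value came from about 456 fragments in the IL6ra T-KO-labelled library, 1636 in MyD88 T-KO and 2436 in WT, which gives a 95% counting interval of 15.3 to 18.7% for the first share and 66.7 to 75.6% for the second. These intervals are exact (Clopper-Pearson) and cover counting error only, since fragments of 1 pooled library say nothing of the spread between mice.

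The size of a difference was expressed as log2((knockout FPKM + 1)/(WT FPKM + 1)), in which differences of genes with low FPKM appear smaller than they are, with the standard error implied by the authors' fold change and test statistic (implied SE), which comes from their model and belongs to the ratio without the added 1. Stom had a log2 ratio of -2.39 (implied SE 0.34) in the IL6ra T-KO-labelled library and -0.48 (0.17) in the MyD88 T-KO library. As a check of the labels, Myd88 had 19.5 FPKM in MyD88 T-KO cells, against 49.8 FPKM in WT, and 34.2 FPKM in the IL6ra T-KO-labelled library, against 51.0 FPKM in WT. Il6ra was at 65.1 FPKM in the IL6ra T-KO-labelled library, against 57.1 FPKM in WT, so its transcript was not reduced. These values cover the whole gene and cannot show a deletion of single exons. Every direction drawn from that library therefore rests on its label.

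Vwde (chromosome 6, 13185611 to 13224965) had the lowest share of the WT level. It was at 0.421 FPKM in the IL6ra T-KO-labelled library, against 5.47 FPKM in WT, or 7.69% of WT (counting interval 5.47 to 10.5%, from about 42 and 490 fragments), a log2 ratio of -2.19 (implied SE 0.58). The MyD88 T-KO library held Vwde at 5.15 FPKM, against 5.34 FPKM in WT, or 96.3% (84.5 to 110%), a log2 ratio of -0.05 (0.22). Vwde was thus near its WT level in the MyD88 T-KO library, where the counting interval includes that level. It was the least abundant of the 5 in WT. Of the 8100 genes with at least 5 FPKM in either library of this comparison with the IL6ra T-KO-labelled library, 6.04% had a lower WT level. Vwde lay just above this minimum, through WT alone, so a low place among these genes follows from the minimum.

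App (chromosome 16, 84954436 to 85173707) was at 1.88 FPKM in the IL6ra T-KO-labelled library, against 9.50 FPKM in WT, or 19.8% of WT (16.4 to 23.7%), a log2 ratio of -1.87 (implied SE 0.45). For App the MyD88 T-KO level was 5.86 FPKM, against 9.27 FPKM in WT, or 63.2% (55.6 to 71.6%), a log2 ratio of -0.58 (0.22). App had the lowest share of the WT level of the 5 in the MyD88 T-KO library. In GENCODE release M21 it overlaps 5 annotated genes on the opposite strand, and because strand in the authors' counting is not given in the sources used here, reads from those cannot be told apart.

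Tspan5 (chromosome 3, 138742195 to 138904424) was the most abundant of the 5. It was at 23.9 FPKM in the IL6ra T-KO-labelled library, against 79.2 FPKM in WT, or 30.2% of WT (28.6 to 31.9%), a log2 ratio of -1.69 (implied SE 0.28). Its level was 60.5 FPKM in the MyD88 T-KO library, against 77.3 FPKM in WT, or 78.3% (75.1 to 81.6%), a log2 ratio of -0.35 (0.16). It was lower in both knockout libraries, by the least of the 5 in the IL6ra T-KO-labelled library. A processed pseudogene, Gm16060, overlaps it on the opposite strand.

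B4galnt4 (chromosome 7, 141061274 to 141072119) was at 6.75 FPKM in the IL6ra T-KO-labelled library, against 25.2 FPKM in WT, or 26.7% of WT (24.4 to 29.3%), a log2 ratio of -1.76 (implied SE 0.32). The MyD88 T-KO level of B4galnt4 was 24.0 FPKM, against 24.6 FPKM in WT, or 97.3% (91.3 to 104%), a log2 ratio of -0.04 (0.17). Like Vwde, it lay far below WT in the IL6ra T-KO-labelled library and near WT in the MyD88 T-KO library, where its counting interval includes the WT level.

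**Figure D1:**
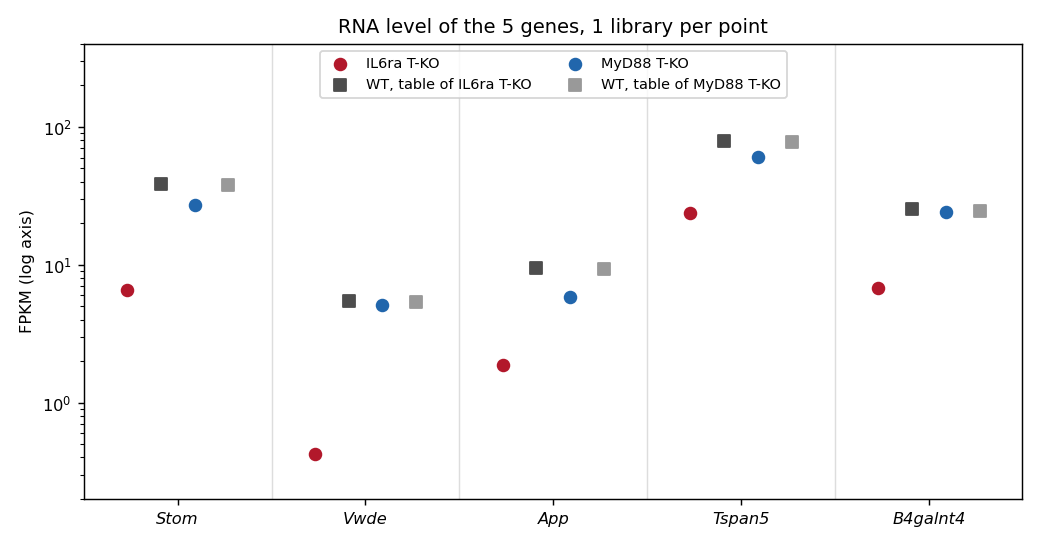
FPKM (log axis) of the 5 genes, with 1 point per library and the WT library shown once for each table. The circles of the IL6ra T-KO-labelled library lie below all other points of each gene, from 0.421 FPKM for Vwde to 23.9 FPKM for Tspan5, while the MyD88 T-KO circles lie close to the WT squares for Vwde and B4galnt4 and below them for App, Stom and Tspan5.

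The size rule counts a gene as lower or higher where its log2 ratio reaches 1 in size and either library has at least 5 FPKM. In the IL6ra T-KO-labelled library all 5 genes were lower by this rule, as were 60 of the 8100 genes that reached 5 FPKM in either library (0.741%). Nothing is read from this count because the genes were picked on it. The authors' deposited table also marked all 5 as significant between these libraries, where 0.467% of the genes they tested were marked as lower. Nothing is read from these marks either. They compare 1 pooled library with 1 and rest on the values the genes were picked on. In the MyD88 T-KO library 0 of the 5 were lower by the size rule, beside 19 of 7933 genes (0.24%). The authors' deposited table marked 0 of the 5 there, beside 0.484% of genes marked as lower, with q-values from 0.171 for App to 1.00 for Vwde and B4galnt4. The authors' implied errors were wider in the IL6ra T-KO table, with a median of 0.32 over genes with at least 5 FPKM, than in the MyD88 T-KO table, with a median of 0.18.

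Within the whole table, the MyD88 T-KO ratios of the 5 genes fell into 2 ranges. Those of App, Stom and Tspan5 stood low in the order of all genes, where 0.895%, 1.27% and 2.62% of the 7933 genes were lower still. Those of Vwde and B4galnt4 stood in its middle part, where 30.3% and 32.5% of genes were lower. The median ratio of all genes was 0.01 in the MyD88 T-KO library and -0.06 in the IL6ra T-KO-labelled library. Both comparisons use the same WT library, so the 2 sets of ratios are not independent.

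**Figure D2:**
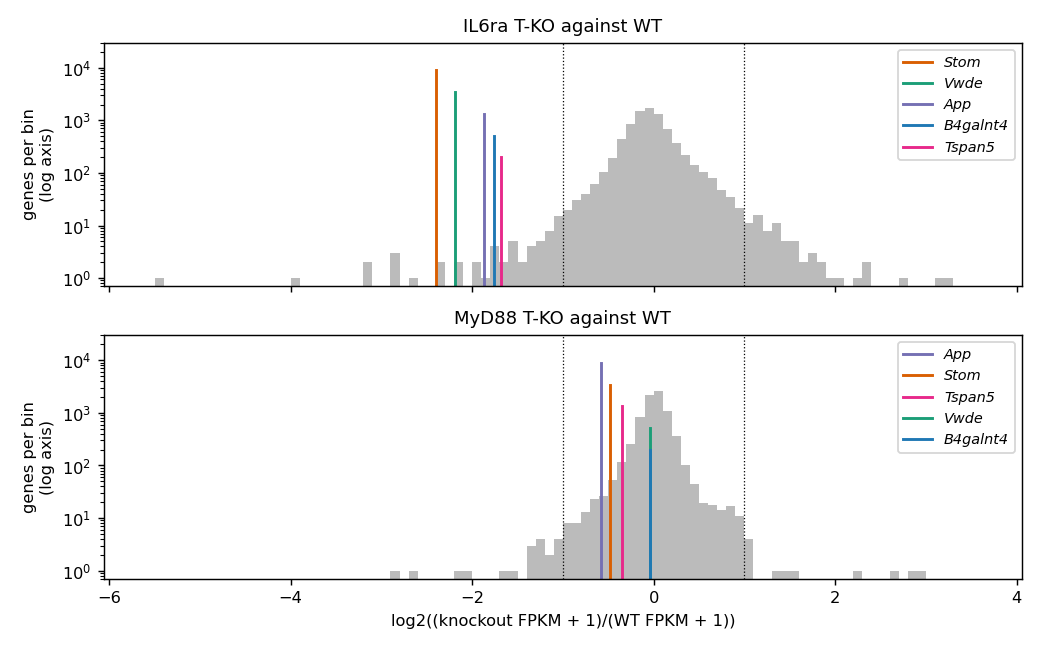
Number of genes (log axis) by log2 ratio of knockout to WT, for genes with at least 5 FPKM in at least 1 of the 2 libraries, with the 5 genes as coloured lines of unequal height for legibility and the size rule as dotted lines at -1 and 1. In the upper panel all 5 lie left of -1, from -2.39 for Stom to -1.69 for Tspan5, and in the lower panel all lie between -0.58 for App and -0.04 for B4galnt4, where the line of Vwde at -0.05 almost coincides with that of B4galnt4.

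Set directly against each other, the IL6ra T-KO-labelled library was lower than the MyD88 T-KO library for every one of the 5 genes. For this the MyD88 T-KO table was multiplied by 1.02, so the levels stand across separately scaled tables, and the IL6ra T-KO values are those the genes were picked on. Vwde was at 0.421 FPKM in the IL6ra T-KO-labelled library, against 5.27 FPKM in MyD88 T-KO, or 7.98%. The shares were 23.9% for Stom, 27.5% for B4galnt4, 31.3% for App and 38.6% for Tspan5, with log2 ratios of -2.14 for Vwde, -1.91 for Stom, -1.72 for B4galnt4, -1.34 for Tspan5 and -1.28 for App. All 5 were lower by the size rule, beside 57 of 8120 genes (0.702%).

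In the order of ratios in the IL6ra T-KO-labelled library, from the lowest up, Stom was 9th, Vwde 11th, App 15th, B4galnt4 18th and Tspan5 20th of 8100. The choice of the 5 had no stated threshold. Ahead of Stom stood Il22, its near-copy Iltifb, Il17f, Gdpd3, the hemoglobin gene Hba-a2 and 3 small RNA genes. Between Stom and Tspan5 stood the IL-1 receptor gene Il1r1 at -2.36, Socs3 at -2.13, the cytokine genes Il17a at -1.98 and Lif at -1.91, the small Maf factor gene Maff at -1.78, the growth factor gene Areg at -1.77 and F2rl1, which encodes a protease-activated receptor, at -1.70. Just outside, after Tspan5 at -1.69, came Ramp1, which encodes a subunit of the CGRP receptor, at -1.66 and Socs1 at -1.58.

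The genes most like each of the 5 over the 3 libraries were found by the Euclidean distance of the 2 log2 ratios. The search covered 7782 genes tested in both tables that reached 5 FPKM in at least 1 library of each. It passed over predicted genes and those of small RNAs. The distance says nothing of shared function. Among the genes searched, Stom lay closest to Socs3, at a distance of 0.27, and Il1r1, at 0.34. Vwde lay closest to Il1r1 at 0.20 and B4galnt4 at 0.43. The gamma delta T cell gene Cd163l1 was tested in both tables but not searched, with 4.93 FPKM in WT in the IL6ra T-KO table. Its log2 ratios of -2.15 in the IL6ra T-KO-labelled library and -0.53 in MyD88 T-KO lay slightly nearer to Stom than those of Socs3. App lay closest to Maff (0.27) and Socs3 (0.27), Tspan5 to Ramp1 (0.05) and Socs1 (0.11), and B4galnt4 to F2rl1 (0.19) and Tgfb3 (0.24), the gene of transforming growth factor beta 3. Socs3 was at 37.9 FPKM in the IL6ra T-KO-labelled library, against 169 FPKM in WT. Its MyD88 T-KO level was 117 FPKM, against 165 FPKM in WT, a log2 ratio of -0.49. Il1r1 stood nearer to Vwde and B4galnt4 in this respect, with 62.4 FPKM in MyD88 T-KO cells, against 69.1 FPKM in WT, a ratio of -0.14.

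In the IL-6 receptor and STAT3 pathway, feedback inhibitors and transcription regulators stood below WT, while the shared receptor chain and the kinases were not past the size rule. Of 18 listed genes, 4 were lower by the size rule in the IL6ra T-KO-labelled library and 0 higher, beside 0.741% lower and 0.951% higher over all genes, with a median ratio of -0.41 beside -0.06 over all genes. The 4 were the inhibitors Socs3 and Socs1 and the transcription regulators Bcl3 at -1.16 and Batf at -1.03, while the receptor chain gp130 (Il6st) was at -0.02, Jak1 at -0.36 and Stat3 at -0.28. In the MyD88 T-KO library 0 of the 18 were past the size rule, with a median of -0.16 beside 0.01 and with Junb lowest at -0.63. Of 13 Th17 genes, 11 reached 5 FPKM in each table, and 7 were lower in the IL6ra T-KO-labelled library, beside 0.741% of all genes, and 3 (Il22, Il17a and Il17f) in the MyD88 T-KO library, beside 0.24%. These lists were chosen with the results known, and some genes stand on both.

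Relatives and partners of the 5 genes were described by family. Over the families listed, 82 genes other than the 5 were in the tables, of which 44 reached 1 FPKM in at least 1 library of the IL6ra T-KO table and 36 reached 5 FPKM. Of them 0 were past the size rule in either direction in either knockout library, beside 0.741% lower and 0.951% higher over all genes in the IL6ra T-KO-labelled library and 0.24% lower and 0.189% higher in MyD88 T-KO, so counts of 0 here and in the families below are near the share over all genes and are not a result about these relatives. The authors' deposited tables marked 0 of the 82. The log2 ratios of those with at least 1 FPKM ran from -0.41 to 0.71 in the IL6ra T-KO-labelled library, with a median of -0.02, and from -0.36 to 0.34 in the MyD88 T-KO library, with a median of 0.02.

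In the family with the stomatin and prohibitin domain, 8 genes including Stom had at least 5 FPKM. Those with at least 1 FPKM other than Stom ran from Flot1, which encodes the raft protein flotillin 1, at -0.40 to Erlin2, a gene of the endoplasmic reticulum, at 0.12. Stoml2, which encodes a stomatin-like protein of mitochondria, was at 21.2 FPKM in the IL6ra T-KO-labelled library, against 21.6 FPKM in WT. Stoml3 was listed at 0 in all libraries. In WT, Stom was second in level to Phb2 (96.1 FPKM) in this family, and in the IL6ra T-KO-labelled library it was near Stoml1 (6.52 FPKM) and Erlin2 (6.06 FPKM).

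Of the genes of the APP family and its processing, 15 including App had at least 5 FPKM. Its paralogue Aplp2 was at 27.6 FPKM in the IL6ra T-KO-labelled library, against 26.1 FPKM in WT, and Aplp1 had a ratio of -0.31. Adam10, the gene of the main alpha-secretase, had a ratio of 0.11, and Psen2, which encodes a subunit of gamma-secretase, was at 0.19. Bace1, the gene of beta-secretase, was at 1.57 FPKM in the IL6ra T-KO-labelled library, against 1.84 FPKM in WT. In the MyD88 T-KO library the lowest of these beside App was Ide, which encodes insulin-degrading enzyme, at -0.36, and the highest was Sorl1, which encodes a sorting receptor of APP, at 0.34.

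Tspan5 belongs to the TspanC8 tetraspanins, the partners of ADAM10. In WT it was the most abundant of them by FPKM, with 79.2 FPKM beside 46.3 FPKM for Tspan14 and 2.21 FPKM for Tspan17. In the IL6ra T-KO-labelled library Tspan14 was above it, at 34.6 FPKM beside 23.9 FPKM, with a ratio of -0.41 to WT for Tspan14. Tspan10, Tspan15 and Tspan33 stayed below 1 FPKM in all libraries. Of 21 other tetraspanins, 9 reached 5 FPKM, with Cd53, a pan-leukocyte tetraspanin, lowest at -0.41 and Tspan2 highest at 0.52 in the IL6ra T-KO-labelled library.

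Of the glycosyltransferases related to B4galnt4, 5 others reached 5 FPKM. B4galnt3, the other enzyme known to make LacdiNAc, was listed at 0 FPKM in the IL6ra T-KO-labelled library and 0.013 FPKM in WT, so B4galnt4 had nearly all of the FPKM of this pair. B4galnt1, which makes the gangliosides GM2 and GD2, was at 131 FPKM in the IL6ra T-KO-labelled library, against 105 FPKM in WT, a ratio of 0.32. B4galt5, a lactosylceramide synthase gene, and B4galt4 had ratios of 0.68 (implied SE 0.29) and 0.71 (0.64), on the other side of 0 from B4galnt4. B4galt4 did not reach 5 FPKM, at 1.96 FPKM in the IL6ra T-KO-labelled library, against 0.808 FPKM in WT. Of the other genes listed for von Willebrand factor domains, 13 were in the tables and 0 reached 1 FPKM, so Vwde had no measured relative among them.

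**Figure D3:**
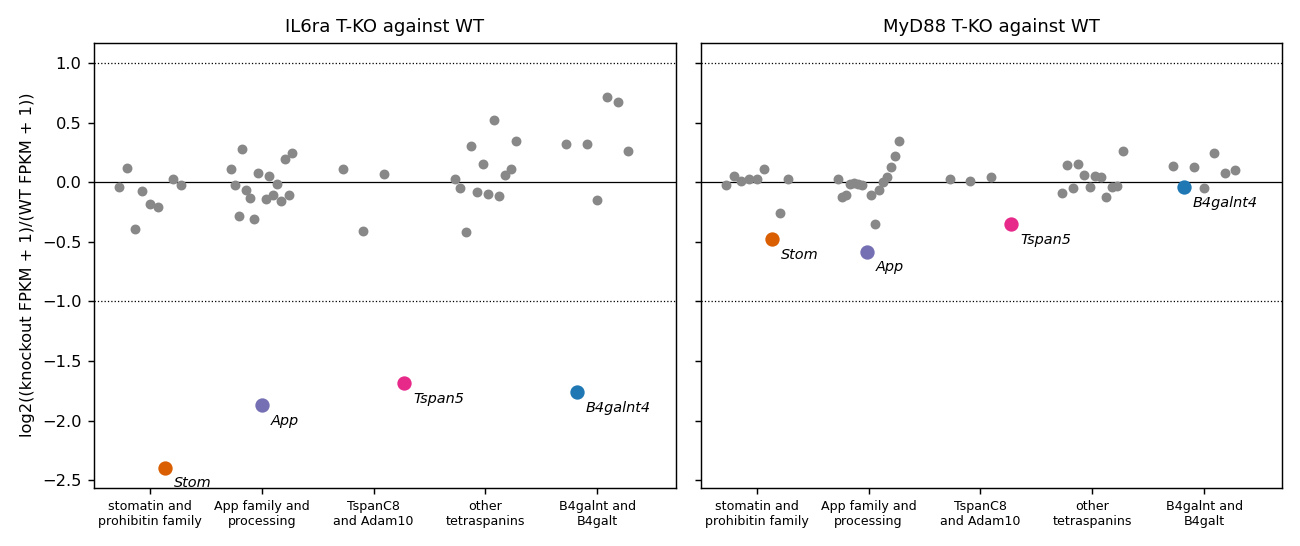
Log2 ratio of knockout to WT for relatives and partners with at least 1 FPKM in at least 1 of the 2 libraries (grey) and for Stom, App, Tspan5 and B4galnt4 (coloured), by family, with the size rule as dotted lines. In the left panel the 4 named genes lie between -2.39 and -1.69 and every grey point lies between -0.41 and 0.71. In the right panel App, Stom and Tspan5 lie lowest in their families and B4galnt4 lies among its relatives.

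The neighbouring genes on the chromosome were measured in the same way. The 2 nearest genes on each side with at least 1 FPKM in at least 1 library gave 20 neighbours, at distances from 6.09 to 3335 kb. Of these, 0 were lower by the size rule in either knockout library and 2 were higher in the IL6ra T-KO-labelled library, beside 0.741% lower and 0.951% higher over all genes, and their median ratio was -0.05 in the IL6ra T-KO-labelled library and 0.02 in the MyD88 T-KO library. Gsn, the gene of the actin-severing protein gelsolin, lies 6.09 kb from Stom and had a ratio of -0.16. Rap1gds1, 21.5 kb from Tspan5, had a ratio of -0.39. The genes around B4galnt4 went in opposite directions. Before its start, the interferon-induced genes Ifitm3 and Ifitm1, whose products block viruses at cell membranes, were at 1.40 and 2.38 in the IL6ra T-KO-labelled library, and beyond its end Pkp3, 6.11 kb away, and Sigirr, which encodes an inhibitory receptor of the IL-1 family, had ratios of -0.54 and -0.58. Ifitm genes have near-copies beside them, and their reads may be divided.

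**Figure D4:**
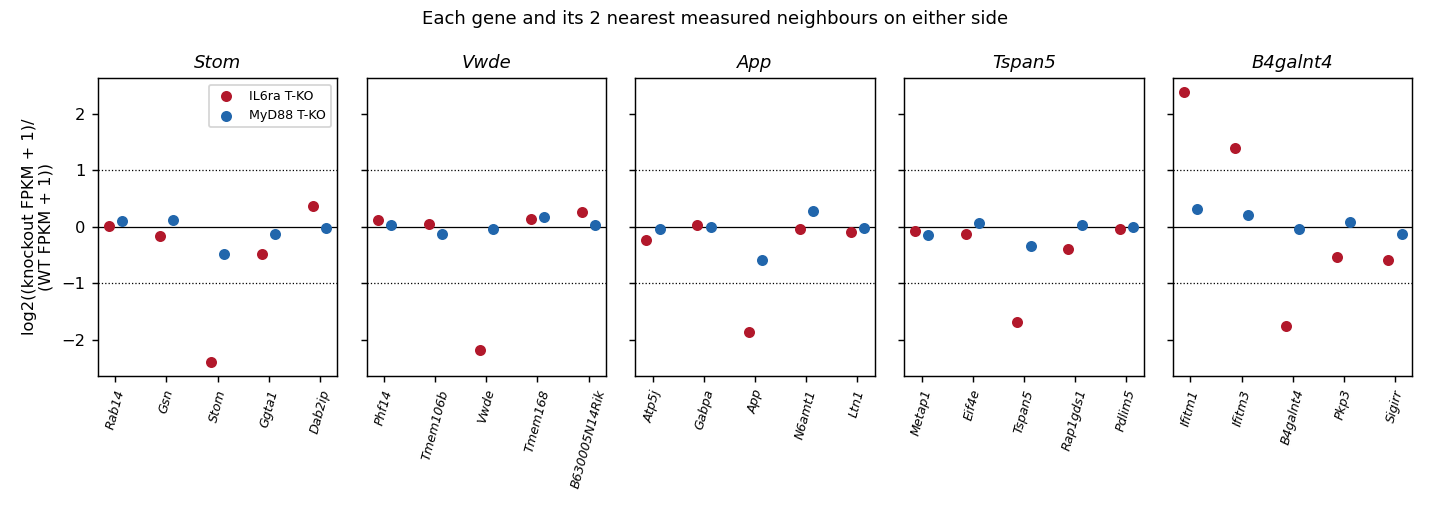
Log2 ratio to WT in the IL6ra T-KO-labelled library (red) and in MyD88 T-KO (blue) for each gene, in the middle of its panel, and its neighbours in chromosome order, not to scale in distance, with the size rule as dotted lines. The middle red point is the lowest in all panels, and only Ifitm1 and Ifitm3 beside B4galnt4 lie above 1.

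Markers of other cells moved with the groups, and in bulk RNA fewer cells of a type and less RNA per cell cannot be told apart. The T cell markers, 7 of 7 measured, summed to 2617 FPKM in the IL6ra T-KO-labelled library, against 2911 FPKM in WT, and to 2932 FPKM in MyD88 T-KO, against 2842 FPKM in WT, so the cells carried their defining genes in all libraries. Stom is abundant in red cells, and the 8 erythroid genes in the tables summed to 4.50 FPKM in the IL6ra T-KO-labelled library, against 14.1 FPKM in WT, and to 35.9 FPKM in MyD88 T-KO, against 13.7 FPKM in WT. These sums came mostly from hemoglobin genes, some with very wide errors. Hba-a2 was at 0.000477 FPKM in the IL6ra T-KO-labelled library, against 6.15 FPKM in WT (implied SE 263). In MyD88 T-KO, Hbb-b2 was at 5.51 FPKM, against 0.00589 FPKM in WT (implied SE 23.5). Neither difference can be read with such errors. Beta-s had log2 ratios of -0.71 (0.64) in the IL6ra T-KO-labelled library and 1.09 (0.34) in MyD88 T-KO, where Hba-a2 had 1.00 (0.37). Slc4a1 and Kel were at 0 in all libraries. App is abundant in platelets, and 8 platelet genes summed to 0.542 FPKM in the IL6ra T-KO-labelled library, against 0.246 FPKM in WT, and to 0.419 FPKM in MyD88 T-KO, against 0.240 FPKM in WT, with Pf4, Ppbp and Tubb1 at 0 in all libraries. Gamma delta T cell genes, 4 of which were in the tables, summed to 5.35 FPKM in the IL6ra T-KO-labelled library, against 9.85 FPKM in WT, and neutrophil genes, 7 in the tables, to 21.7 FPKM in the IL6ra T-KO-labelled library, against 36.2 FPKM in WT. In MyD88 T-KO the gamma delta sum was 9.76 FPKM, against 9.61 FPKM in WT, and the neutrophil sum 38.9 FPKM, against 35.4 FPKM in WT. The neutrophil sums came mostly from S100a8 and S100a9. Their log2 ratios were -0.75 (implied SE 0.62) and -0.50 (0.60) in the IL6ra T-KO-labelled library, and the authors marked neither. Mpo and Elane, both under 1 FPKM, were above WT there. Mpo, at 0.798 FPKM against 0.0329 FPKM in WT, was marked by the authors. The gamma delta sums hold genes that went opposite ways. Cd163l1 was at 0.338 FPKM in the IL6ra T-KO-labelled library, against 4.93 FPKM in WT, and at 3.02 FPKM in MyD88 T-KO, against 4.81 FPKM in WT, and 5830411N06Rik was also below WT in both. Blk, a kinase gene that B cells also express, was at 4.43 FPKM in the IL6ra T-KO-labelled library, against 2.79 FPKM in WT, and at 5.63 FPKM in MyD88 T-KO, against 2.72 FPKM in WT. These 3 genes were named after their values were seen. The B cell genes, 9 of 9 measured above 0, had sums of 195 FPKM in the IL6ra T-KO-labelled library, against 137 FPKM in WT, and 213 FPKM in MyD88 T-KO, against 133 FPKM in WT. The 3 plasma cell genes in the tables summed to 44.3 FPKM in the IL6ra T-KO-labelled library, against 8.87 FPKM in WT, and the 11 macrophage and dendritic cell genes to 27.4 FPKM in the IL6ra T-KO-labelled library, against 18.5 FPKM in WT. In MyD88 T-KO the plasma cell sum was 16.7 FPKM, against 8.65 FPKM in WT, and the macrophage and dendritic cell sum 26.9 FPKM, against 18.1 FPKM in WT. The sums of B cell, plasma cell and macrophage and dendritic cell genes were thus higher than WT in both knockout libraries. The plasma cell sums were almost all from Igj, at 42.2 FPKM in the IL6ra T-KO-labelled library, against 8.16 FPKM in WT. Lyz2 was the largest part of the macrophage and dendritic cell sums in both knockout libraries. Of these genes with at least 1 FPKM, 5 were above and 1 below WT in the IL6ra T-KO-labelled library. In MyD88 T-KO, 2 were above and 1 below. The gene below WT was Cd68 in both. The 2 CD8 T cell genes summed to 14.2 FPKM in the IL6ra T-KO-labelled library, against 11.7 FPKM in WT, and to 22.0 FPKM in MyD88 T-KO, against 11.4 FPKM in WT. The sums of 4 NK cell genes and of 9 genes of stroma and endothelium, the second almost all from Pecam1, were within 10% of WT in both knockout libraries. The part of any of these cells in the levels of the 5 genes was not tested.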

How the data were processed

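RNA from CD4+ T cells binding 2W:I-A(b) was sequenced after polyA selection, per the labels' protocols. The submitters' processing notes name TopHat, Cufflinks and mm10. No source used here gives their versions, their settings, the strand setting or the read length. The authors deposited 2 tables, each over 4 sheets, with the FPKM of 1 knockout library and of the same WT library. They also deposited a log2 fold change (WT over knockout, turned round here), a test statistic (a score), and a p-value and q-value per gene, each comparing 1 library with 1 library. A line of each table was empty.

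Rows were read from all sheets, with 1 row per symbol. Ratios used a pseudocount of 1 FPKM, and calls a log2 size of 1 with at least 5 FPKM in at least 1 library. Starts are the deposited starts plus 1. Fragments were estimated from single-transcript genes over 1500 nt, and for the 5 genes from the shortest GENCODE M21 transcript matched to RefSeq, so they err low. Named beside the 5 were Myd88, Il6ra, list members with the largest ratios, neighbours, genes next in order and genes nearest in pattern. Other genes were named as defining members of a list or family after their values were seen. The members and lists were chosen with earlier results of these data known. No protein sequences were used here. The calculation was tested on simulated data. Python 3.11.15, pandas 2.3.3, numpy 2.4.6, scipy 1.17.1 and matplotlib 3.10.9 were used.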

Additional observations from a re-analysis of the deposited data

How the results depend on the processing

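The count of the 5 genes lower in the IL6ra T-KO-labelled library was 4 with a pseudocount of 5 FPKM, where Vwde was at -0.95, and 5 under the other alternatives run, namely a pseudocount of 0.1 FPKM, centring on the median, the WT values of the other table and the authors' significance mark. In the MyD88 T-KO library it was 0 under all of these. Between the knockout libraries it was 3 with a pseudocount of 5 FPKM, with Vwde at -0.92 and App at -0.68. No ratio of the 5 genes changed sign under any alternative. Those of Vwde against WT ran from -3.42 to -0.95 in the IL6ra T-KO-labelled library, since its low FPKM lies under the added pseudocount, and those of Tspan5 from -1.72 to -1.54. Over all genes, a pseudocount of 5 FPKM gave 35 lower and 32 higher in the IL6ra T-KO-labelled library and 10 lower in MyD88 T-KO. Without a filter, or with a minimum of 1 FPKM, 116 were higher in the IL6ra T-KO-labelled library. In MyD88 T-KO 27 were higher with a pseudocount of 0.1 FPKM, and the authors' mark gave 54 lower and 44 higher. Without small RNA and predicted genes, an alternative chosen after seeing the data, 8 were higher there. No paired analysis was possible because each genotype has 1 library, and for the same reason no library could be left out. Depth limits Vwde most, with about 42 fragments in the IL6ra T-KO-labelled library.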
